A study of Danio rerio with 4 samples.

Results

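Ribosome footprints of the brain of nop2 mutant zebrafish were compared with those of sibling fish over all genes of the deposited Ribo-seq table. Genes were taken in when the mean of the sibling and the mutant library was at least 10 CPM (a gene's count per 1000000 counts of its library), which held for 10065 of 25522 genes. Each gene was given a log2 ratio, mutant over sibling, with 0.5 counts added to both counts, so a ratio of 1 is a 2-fold higher and -1 a 2-fold lower share of the library's footprints. The gene closest to the minimum from above, mtmr12, had a log2 ratio of 0.29, and the closest from below, mtmr10, one of 0.12; both means round to 10.0 CPM. Genes were then grouped by the words of their deposited description and by their KEGG pathway entries, so that the whole range of ratios could be read by gene function.

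The study compared fish labelled nop2 sibling with fish labelled nop2 mutant, using brain tissue described as whole brain cells. The labels do not give the allele, the genotype mix of the siblings or the number of fish pooled, and the age reads 48 dpf in the sample titles but 48 hpf in the design text. Ribo-seq was done on 1 library of each genotype, so nothing below has a replicate check and no p-value is given. RNA bisulfite sequencing of the same groups was not analysed here.

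Nop2 is a nucleolar protein that, in yeast and human cells, methylates a cytosine of the large-subunit ribosomal RNA and is needed to build the large ribosomal subunit. Ribo-seq digests the RNA that ribosomes do not cover and sequences the protected footprints, so a gene's count reflects both how much of its mRNA was present and how densely ribosomes sat on it. Ribosome production is tied to growth and proliferation, and faults in it are known to stabilise p53.

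The sibling library held 20696345 counts and the mutant library 18884879. Intervals given with a log2 ratio are 95% exact intervals from the 2 counts. They cover counting error only, not the spread between fish, PCR duplicates or the split of reads among similar copies. No total RNA was available to divide by, so transcript level and ribosome load cannot be separated, and in whole tissue fewer cells of a type and less RNA per cell cannot be told apart. The targeted gene nop2 had 31.7 CPM in sibling and 2.17 CPM in mutant brain, with a log2 ratio of -3.85 (-4.36 to -3.41). All 12 listed neuron markers, among them elavl3 and snap25a, were above the minimum. Genes that define other tissues were also plainly present in both libraries: the 6 skeletal muscle markers summed to 34372 CPM in the sibling and 11325 in the mutant, and the 6 lens markers to 4664 and 2057 CPM.

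Most genes lay close to equality. The median log2 ratio was -0.04, with an exact interval for the median of -0.05 to -0.03, and the quartiles were -0.29 and 0.25. Log2 ratios within 0.5 of 0 were found for 7425 genes, or 73.8%. The mutant value was higher for 4595 genes (45.7%) and lower for 5470 (54.3%). At least 2-fold higher values were seen for 362 genes, which is 3.60% of those kept, and at least 2-fold lower values for 333, which is 3.31%. Past 4-fold, 40 genes were higher and 86 lower. These percentages are the background against which each group of genes below is set.

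The width of the distribution did not simply follow the counts. Among the 3289 genes from 10 to 20 CPM the interquartile range of the log2 ratio was 0.59, and a single gene's counting interval was 0.50 wide at the median. From 50 to 200 CPM the interquartile range was 0.47 and the counting interval 0.21. Above 200 CPM, where 823 genes carried 57.1% of sibling footprints, the interquartile range was 0.68 while the counting interval was only 0.10 wide. The share of genes at least 2-fold apart was 12.4% in this top band and 5.45% between 20 and 50 CPM. In the plot of ratio against abundance, most crystallins lay low, and most cytosolic ribosomal proteins and complement and coagulation proteins lay high. The quartile ranges of the ribosomal and the complement class overlapped, and myosins lay on both sides of equality.

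**Figure D1:**
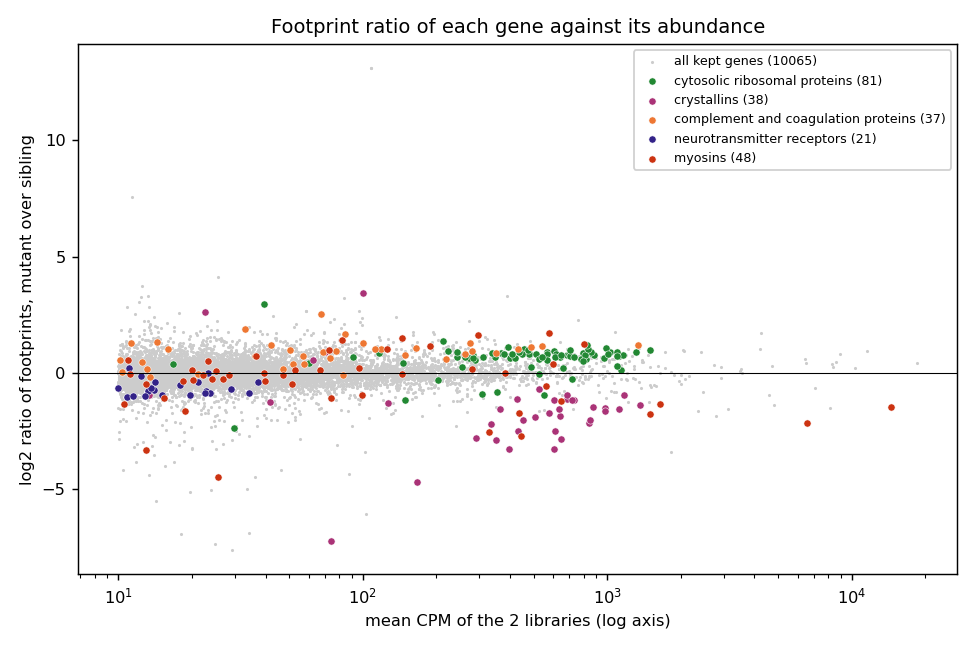
Log2 ratio of mutant over sibling footprints (vertical axis) against mean CPM (horizontal log axis) for the 10065 kept genes, 1 point a gene, with 5 description classes in colour. Cytosolic ribosomal proteins form a band near a log2 ratio of 0.73, most crystallins lie below -1, and the topmost mark at 13.12 is a pair of genes with 0 sibling counts, whose height is set by the added 0.5.

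Summed over all genes, 17.01% of the mutant library's footprints would have to be moved between genes to give the sibling distribution. The loss was concentrated, with 51 genes holding 50% of it, while 50% of the gain was spread over 108 genes. Skeletal muscle genes headed the losses. The heavy chain gene myhz1.1, a motor of fast muscle fibres, had 21336 CPM in sibling and 7625 CPM in mutant brain. Its paralogue myhz1.2 had 10744 and 2371 CPM, and the muscle actin actc1b had 12049 and 4201 CPM. The sarcoplasmic calcium pump atp2a1, the creatine kinases ckma and ckmb that buffer ATP, the tropomyosin tpma and the calcium-binding parvalbumins pvalb1 and pvalb2 were among the 10 largest losses as well, with log2 ratios from -3.42 for pvalb1 to -0.98 for pvalb2. The remaining one, ENSDARG00000116076, is described only by a hypothetical protein of another fish and had 8679 and 5404 CPM. None of the 10 largest losses had whole-number counts, so the split of reads among similar copies is uncertain for each.

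The gains were of other kinds. The largest was a gene with the symbol Tecta, described as an uncharacterized protein, at 8028 CPM in sibling and 15126 CPM in mutant brain. Lipoprotein genes held 3 of the 10 places: apobb.1, which encodes the structural protein of lipoprotein particles, had 15828 and 21308 CPM, and apoa1b and apoa1a, which encode the main protein of high-density lipoprotein, had log2 ratios of 0.47 and 0.40. Keratins of the embryo's outer skin layer held another 2, krt4 with 6520.4 and 11426 CPM and cyt1 with 2795 and 5667 CPM. The lysosomal protease gene ctsla had the steepest ratio of the 10, from 1973 to 6525 CPM, a log2 ratio of 1.73 (1.71 to 1.74). Betaine-homocysteine methyltransferase, bhmt, a methyl-transfer enzyme abundant in liver, stood at 5159 and 7759.6 CPM. The other 2 were ENSDARG00000089382, which has no symbol, and the cytoskeletal actin actb2, whose log2 ratio was 0.21. Of these 10 genes only Tecta and bhmt had whole-number counts. For the rest, ctsla included, the split of reads among similar copies is uncertain.

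**Figure D2:**
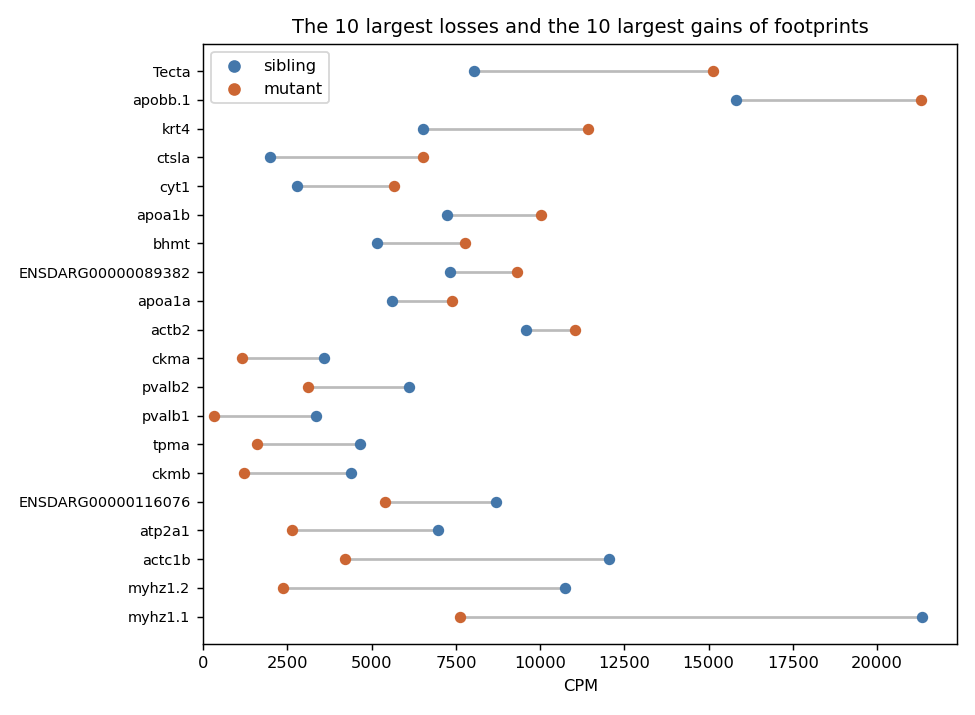
CPM in the sibling and mutant library (horizontal axis) for the 10 genes with the largest loss and the 10 with the largest gain of CPM, 1 point a library. Muscle genes make up most of the losses, led by myhz1.1 at 21336 and 7625 CPM, and the gains are led by Tecta at 8028 and 15126 CPM.

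Of 81 cytosolic ribosomal proteins, 73 were higher in the mutant and 8 lower, and their summed level was 35423 CPM in the sibling against 55897 CPM in the mutant. The gene rpl19 carried the most footprints, 1023 and 1979 CPM. The class was narrow, with quartiles of 0.59 and 0.85, but its extremes pointed in opposite directions. At the top rps27l, a ribosomal protein paralogue that p53 induces in mammals, had 9.04 and 69.7 CPM, a log2 ratio of 2.94 (2.73 to 3.18). At the bottom rplp2 had 50.01 and 9.58 CPM, a log2 ratio of -2.38 (-2.62 to -2.15). Rplp2 is an acidic protein of the ribosomal stalk, the arm of the large subunit that recruits translation factors. Both other stalk proteins were also lower, rplp0 at 404 and 213 CPM and rplp1 at 455 and 254 CPM, so all 3 stalk genes went against the class. The remaining lower members were rpl22l1 (-1.16), rpsa (-0.98), rps12 (-0.34), rps2 (-0.27) and rps9 (-0.05), each with its log2 ratio, and these exceptions were named after their values were seen.

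Factors that make ribosomes were higher too, by less. Among 48 nucleolar and rRNA processing proteins 43 were higher and 5 lower, with a median of 0.41. None was 2-fold higher and nop2 itself was the only one 2-fold lower. With 3.60% and 3.31% of all kept genes that far apart, neither count is far from the background. The highest was rrp8, an rRNA methyltransferase of the nucleolus, with 7.05 and 13.4 CPM, and the most abundant, nucleolin (ncl), was nearly level at 977 and 1015 CPM. Translation initiation and elongation factors had a median of 0.09, with 44 of 70 higher. Within them 13 of 16 genes for subunits of initiation factor 3, the scaffold of the small-subunit initiation complex, were higher, up to eif3g at 134 and 193 CPM. The highest factor, eif4ebp3l, encodes a binding protein of the cap-binding factor and had 16.2 and 37.4 CPM, whereas the scaffold eif4g1a was the lowest with a log2 ratio of -0.53.

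Other machinery of gene expression stayed near the median of all genes. Mitochondrial ribosomal proteins, 70 genes, had a median of 0.02 and none of them reached 2-fold in either direction. The 25 tRNA ligases, which charge tRNAs, and the 90 splicing factors and nuclear ribonucleoproteins also had no gene at 2-fold, with medians of 0.00 and 0.00. The same held for 45 proteasome subunits, whose log2 ratios ran from -0.34 for psmd3 to 0.50 for psmd9. Among all kept genes only 3.60% were at least 2-fold higher and 3.31% lower. Absence at 2-fold from a class as small as the tRNA ligases is thus close to the background. Cytosolic and mitochondrial ribosomal proteins thus had medians of 0.73 and 0.02, and their quartile ranges did not overlap.

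**Figure D3:**
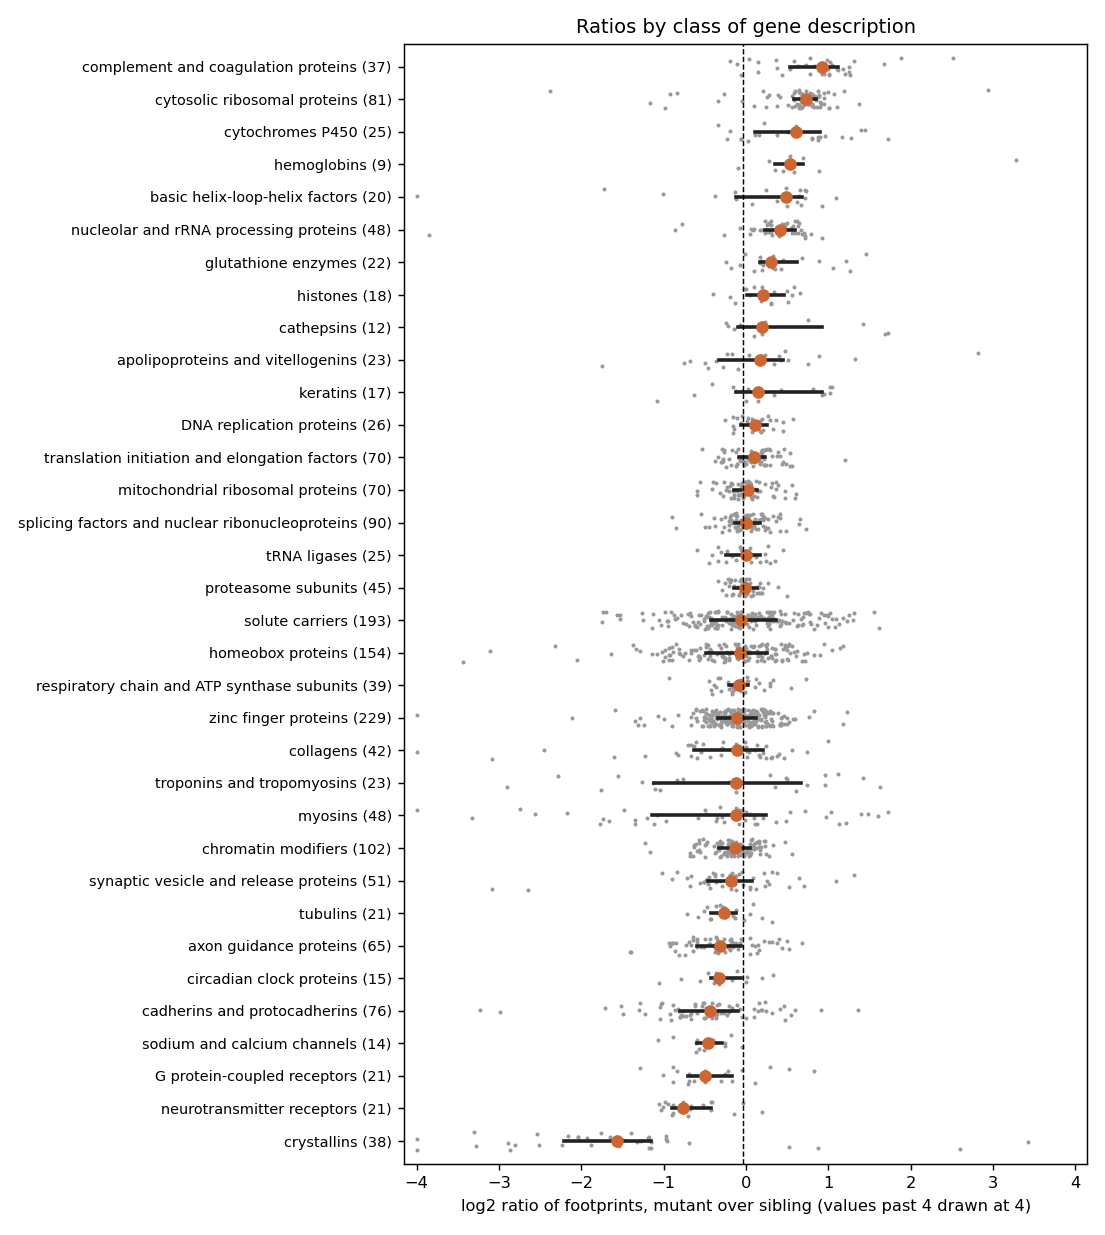
Log2 ratio of mutant over sibling footprints for each gene (grey points) in 34 description classes, with the number of kept genes in brackets, the class median (orange point) and the quartiles (black bar), and the median of all kept genes as a dashed line. Classes run from crystallins at -1.57 to complement and coagulation proteins at 0.92, and values past 4 in either direction are drawn at 4.

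Most classes of neuronal surface and signalling proteins were lower in the mutant, potassium channels and hormones being the exceptions given below. Among 21 neurotransmitter receptors 20 were lower, with a median of -0.77, and their summed level was 478 CPM in sibling and 303 CPM in mutant brain. This concerned receptors for excitatory and inhibitory transmitters alike. All 6 kept GABA receptor genes were lower, from gabbr1b at 42.4 and 31.8 CPM to GABRA2 at 17.3 and 8.47 CPM, as were 12 of 13 glutamate receptor genes. The lowest ratio belonged to the metabotropic receptor grm2b, with 14.7 and 7.04 CPM. Only Grin2d, a subunit of the NMDA receptor, was higher, at 10.3 and 11.9 CPM with an interval of -0.08 to 0.48 that includes 0. Under TMM and DESeq2 scaling 2 of the 13 glutamate receptor genes were higher and 11 lower. Whole-number counts were held by all 6 GABA receptor genes but only 2 of the 13 glutamate receptor genes. The split of reads among similar copies is uncertain for the others. Only 21 of 135 genes of the receptor class passed the minimum, so most receptors are not described.

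Transmitter transporters gave a similar picture. Of 10 kept glutamate and GABA transporters 8 were lower, among them slc1a2b, which clears glutamate into glia, at 866 and 438 CPM. The GABA transporter SLC6A11 had 107 and 32.2 CPM, while its paralogue slc6a11a went the other way at 6.14 and 18.2 CPM. This small group was assembled after the values were seen. All 14 sodium and calcium channel genes were lower, or 13 under TMM and DESeq2 scaling and with the TPM, with a median of -0.46; the least so was the neuronal sodium channel scn8aa at 53.4 and 51.8 CPM, and the most so the skeletal muscle calcium channel cacna1sa at 15.5 and 7.36 CPM. The last of these is a muscle gene, so the class is not purely neural. Genes matched as potassium channels, 12 of 21 lower with a median of -0.22, had a share of lower genes near that of all genes. The lowest was KCTD15 at a log2 ratio of -1.03, which is not itself a channel and was caught by its name. The highest was kcnk6 at 0.92. The words for neuropeptides and hormones matched only 7 kept genes, 2 of which are no hormones, and 6 of them were higher, with a median of 0.63 and the pituitary hormone gene prl highest at 4.45 and 20.97 CPM.

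Proteins of synaptic vesicles and transmitter release were lower for 36 of 51 genes, with a median of -0.18. The lowest was syt5b, a calcium sensor of vesicle fusion, at 48.1 and 5.67 CPM. The highest, stx11b.1, a syntaxin, had 8.31 and 20.8 CPM. The gene with the most footprints in this class, syncrip, encodes an RNA-binding protein and was caught by its name only.

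Axon guidance proteins, the ligands and receptors that steer growing axons, had 49 of 65 genes lower and a median of -0.32. The ephrin receptor EPHB5 was lowest, at 24.98 and 9.43 CPM. The 4 slit genes, which encode midline repellents and were picked out after their values were seen, were all higher, from slit2 at a log2 ratio of 0.22 to slit1b at 0.68, the highest of the class. The most footprints of the class were on slit1a, 143 and 193 CPM. Cadherins and protocadherins, which join cells and give neurons surface identities, were lower for 59 of 76 genes. At least 2-fold lower were 12, or 15.8%, against 3.31% of all kept genes. The clustered protocadherins had 21 of 23 lower with a median of -0.80, and the other protocadherins 19 of 20 with a median of -0.51. None of the clustered genes had whole-number counts, so the split of reads among similar copies, and with it each gene's own value, is uncertain. The lowest protocadherin, pcdh8, does not belong to a cluster and had 36.05 and 3.81 CPM. Beta-catenin (ctnnb1), matched because its description names cadherin, was level at a log2 ratio of 0.00.

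Tubulins, which form microtubules, were lower for 17 of 21 genes, with summed levels of 13374 CPM in sibling and 10915 CPM in mutant brain. The range was tight, from tubb4bl at a log2 ratio of -0.72 to tppp2, a tubulin-binding protein, at 0.32. None reached 2-fold, where 3.60% of all kept genes were higher and 3.31% lower. The most abundant was tuba1a, with 2267 and 1882 CPM. G protein-coupled receptors, 17 of 21 lower, had a median of -0.50. Among them the adhesion receptors adgrl3.1 and adgrb1a had log2 ratios of -0.88 and -0.70, while adgrg1 was the highest of the class at 23.3 and 41.3 CPM.

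Genes of neural precursors did not share one direction. The 8 kept hairy-related genes, transcription factors many of which act below Notch and hold precursors back from differentiation, were all higher, from her6 at 41.99 and 49.6 CPM to her15.1 at 32.8 and 69.8 CPM. They were picked out after their values were seen and only 2 have whole-number counts. Of the listed progenitor and glia markers, 4 were higher and 3 lower. The higher ones included sox3 at 75.2 and 122 CPM and nes at 57.98 and 87.8 CPM, and the lower ones fabp7a, a fatty acid binding protein of radial glia, at 800.3 and 252 CPM. Of 12 neuron markers 10 were lower, but among these the intervals of gad1b, slc17a6b and gap43 include 0. So do the intervals of the higher ones, elavl3 and snap25a. The sum over all 12 was 2996 CPM in sibling and 2509.6 CPM in mutant brain, of which tubb5 alone gave 1311 and 1081 CPM. The part of cell composition in the neural results was not tested.

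The lens crystallins, the refractive proteins of lens fibres, were lower for all 34 kept genes. At least 2-fold lower were 30 of them, or 88.2%, against 3.31% of all kept genes. Together the lens crystallins had 30146 CPM in sibling and 9458 CPM in mutant brain. The most abundant, crybb1, had 1977 and 749 CPM. The mildest was cryba2b at 649.7 and 402 CPM, and the steepest crygm2d11 at 148 and 0.953 CPM. Counts were whole numbers for only 3 of the 34, so the split among the many gamma M2 copies is uncertain. The word crystallin also caught small heat shock proteins, and these were higher: hspb9 had 17.1 and 184 CPM, hspb9l 6.43 and 39.03 CPM, and hspb1 49.7 and 90.8 CPM. Small heat shock proteins bind unfolded proteins in many tissues. Of the 7 retina markers, 4 of which passed the minimum, 5 were lower and 2 higher, and all 7 together summed to 426 CPM in sibling and 66.1 CPM in mutant brain. Among the lower ones were the bipolar cell factor vsx1 at 187 and 17.2 CPM and the photoreceptor factor crx at 141 and 16.3 CPM. The higher ones were the cone transducin gnat2, at 7.49 and 19.5 CPM, and rx1, with a log2 ratio of 0.42 (0.07 to 0.77). Whether eye tissue entered the dissections unequally was not tested.

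Myosins had a median near that of all genes, -0.12, yet 7 of 48 lay 2-fold or more above the sibling and 14 2-fold or more below it. These shares were 14.6% and 29.2%, against 3.60% and 3.31% of all kept genes. Troponins and tropomyosins, which switch contraction on with calcium, also had genes at both ends, 3 and 8 of 23, or 13.0% and 34.8%. Sorted by the fibre type that the description names, a grouping made after the values were seen, all 11 contractile genes described as fast were lower, with a summed 9579 CPM in sibling and 3930.3 CPM in mutant brain and a median of -1.21. Of 6 described as slow, 5 were higher, and their sums were 509 and 1147 CPM. Whole-number counts were held by only 1 of the 11 fast and 1 of the 6 slow genes. The split of reads among similar copies is thus uncertain in both groups.

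Single genes show the contrast. The fast regulatory light chain mylpfa had 2303 and 674 CPM, a log2 ratio of -1.77 (-1.80 to -1.74). The slow heavy chain smyhc1 had 268 and 886 CPM, a log2 ratio of 1.73 (1.68 to 1.77). Its close copy smyhc2 went the other way, 132 and 67.2 CPM, and neither has whole-number counts. The contractile genes grouped as cardiac were mixed, with 5 of 7 higher: the atrial heavy chain myh6 had 45.2 and 119 CPM and tnnt2d 30.01 and 92.98 CPM, but tnnt2c, another cardiac type troponin T, had 51.3 and 6.83 CPM. This group did not take in actc1b, whose description also names cardiac muscle. With 12049 and 4201 CPM that gene was lower and far more abundant than the whole group, which summed to 231 and 379 CPM. The lowest myosin, myhb, had 48.99 and 2.17 CPM. Muscle is not brain tissue, all 6 skeletal muscle markers were lower, and the part of adjoining head muscle in these results was not tested.

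**Figure D4:**
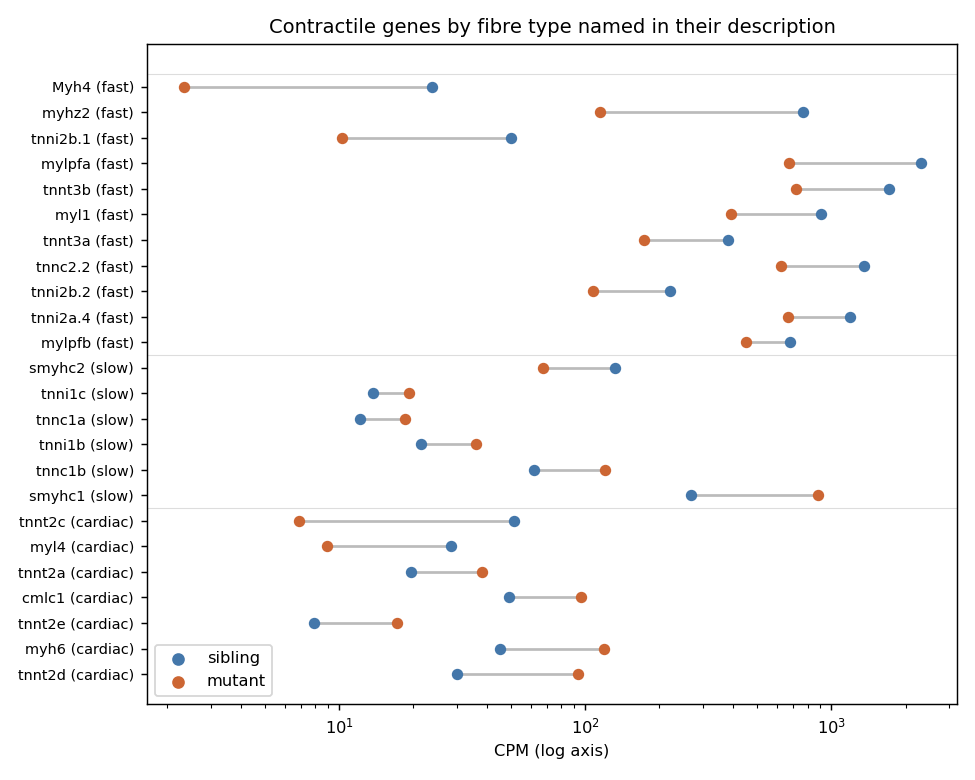
CPM (horizontal log axis) in the sibling and mutant library for contractile genes whose description names fast, slow or cardiac muscle, 1 pair of points a gene. Every fast gene is lower in the mutant, 5 of 6 slow genes are higher, and the cardiac genes go both ways. The actin gene actc1b, whose description names cardiac muscle, is not drawn.

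Complement and coagulation proteins, made mainly by the liver and secreted into blood, had the highest median of the classes, 0.92, with 34 of 37 higher. At least 2-fold higher were 15, or 40.5%, against 3.60% of all kept genes. The sum was 3847 CPM in sibling and 7707 CPM in mutant brain. Complement component c3a.1 carried the most footprints, 818 and 1852 CPM. The largest ratio was that of c6.2, a member of the membrane attack complex, with 20.1 and 115 CPM. The 3 fibrinogen chains, which polymerise into clots, had similar values, with log2 ratios of 1.12 for fga, 1.11 for fgb and 1.02 for fgg. The lowest member, c3a.2, had 14.4 and 12.6 CPM and an interval that includes 0, -0.44 to 0.06.

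Red cell genes were mostly higher, while lipid transport genes were higher in their summed level only. Of 9 hemoglobin genes 8 were higher, led by the embryonic beta chain hbbe3 at 72.3 and 705 CPM, while hbae1.2, with the most footprints, had 1202 and 2228 CPM. Apolipoproteins and vitellogenins had 13 genes higher and 10 lower. Their median was only 0.17, with an interval of -0.28 to 0.43 that includes 0. Their sum was 42259 CPM in sibling and 55115 CPM in mutant brain, since the members with the most footprints were higher. The apolipoprotein E gene apoeb had 1697 and 3137 CPM, and apoda.1 was the lowest at 35.03 and 10.4 CPM. The yolk precursor vtg7 had the highest ratio, 3.29 and 23.4 CPM. Blood markers, of which 3 were found in the table, summed to 344 and 1096 CPM. The liver and yolk list was mixed, and only apoa1a and tfa of it passed the minimum. The gene apoa1a was higher and tfa, for transferrin, lower at a log2 ratio of -0.23. Below the minimum the liver fatty acid binding protein gene fabp10a had 105 counts in sibling and 1 in mutant brain, a log2 ratio of -6.004 (-11.90 to -4.07), against the direction of the complement genes. One vtg1 entry had 16 and 272 counts while its other 2 entries were at 0 in both libraries, and vtg2 had 0 and 2 counts. The part of blood or liver carry-over in these results was not tested.

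Detoxifying enzymes were higher as well. Cytochromes P450, which oxidise drugs, steroids and retinoids, had 20 of 25 genes higher with a median of 0.61. All 10 kept genes of family 2 were higher, up to cyp2y3 at 32.3 and 107 CPM. Only 1 of these 10 had whole-number counts, so the split of reads among similar copies is uncertain. The most abundant member, cyp1a, a target of the aryl hydrocarbon receptor, was level at 106 and 108 CPM, and cyp26b1, which degrades retinoic acid in the brain, was the lowest with a log2 ratio of -0.34. Glutathione enzymes had 18 of 22 genes higher and a median of 0.30, with the microsomal transferase mgst2 highest at 6.67 and 18.4 CPM and the peroxidase gpx4b lowest at a log2 ratio of -0.24.

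Keratins had a median of 0.14, but 5 picked out after their values were seen were higher: krt4, cyt1, cyt1l, krt17 and krt97 had log2 ratios from 0.81 for krt4 to 1.04 for krt17. None of the 5 had whole-number counts, so the split of reads among similar copies is uncertain. The lowest keratin, krt1-19d, had 133 and 63.1 CPM. Of the 6 epidermis markers 4 were higher, and all 6 together had 13003 and 21188 CPM, and the part of skin in these results was not tested. None of 42 collagens was at least 2-fold higher, against 3.60% of all kept genes, so their absence is close to the background. At least 2-fold lower were 5 collagens, or 11.9%, against 3.31% of all kept genes. The lowest was col10a1a, a collagen of bone and mature cartilage, at 88.1 and 4.82 CPM. The cartilage collagen col2a1a carried the most footprints, 1836 and 1279 CPM. Fibronectin fn1b, which links cells to the matrix, was the highest of the laminins, integrins and fibronectins at 262 and 1262 CPM. Among 12 cathepsins 3 were at least 2-fold higher, or 25%, against 3.60% of all kept genes. The cathepsin sum was 2748 CPM in sibling and 7571 CPM in mutant brain, most of it ctsla. The collagen chaperone serpinh1b was the highest of the serine protease inhibitors, 89.9 and 299 CPM.

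The large regulatory classes had medians slightly below that of all genes. Chromatin modifiers had 71 of 102 genes lower with a median of -0.14, from CHD3, a nucleosome remodeller, at 27.01 and 11.5 CPM to the Polycomb gene bmi1a at 20.2 and 29.8 CPM. Zinc finger proteins had 144 of 229 lower and a median of -0.11. Homeobox proteins had a median of -0.07 and wide quartiles of -0.49 and 0.26. At least 2-fold lower were 12 genes, or 7.79%, against 3.31% of all kept genes. At least 2-fold higher were 3, or 1.95%, against 3.60%. The lowest homeobox gene was the retinal factor vsx1 and the highest otx2a, at 12.4 and 28.1 CPM. Basic helix-loop-helix factors had 14 of 20 genes higher and 6 lower. Their median was 0.49, with an interval of -0.12 to 0.67 that includes 0. The hairy-related genes, 8 in number, all higher and picked out after their values were seen, are part of this class. Its lowest member was bhlhe23 at 29.4 and 1.80 CPM. Histones had 14 of 18 genes higher with a median of 0.20, from the H3.3 gene h3f3c at -0.40 to the linker histone gene histh1l1 at 0.66 on the log2 scale. All 10 genes of type H2A were higher, or 9 of them when scaled by the TPM or by totals without muscle, eye, skin and blood classes. No histone gene had whole-number counts, so histone values by gene are uncertain.

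Circadian clock proteins had 11 of 15 genes lower and a median of -0.32. The repressor per3 was lowest at 23.2 and 11.2 CPM, and the cryptochrome cry4 highest at 30.5 and 38.3 CPM. Of 5 ROR nuclear receptors, which activate clock genes and also act in retina and cerebellum, 3 passed the minimum. All 3 were at least 2-fold lower: rorab had 39.9 and 7.89 CPM, roraa 25.6 and 7.63 CPM, and rorb 62.9 and 22.3 CPM. The labels do not give the time of day of the dissections.

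DNA replication proteins had 18 of 26 genes higher and a median of 0.11, but the 6 subunits of the replicative helicase were all slightly lower, from mcm7 at a log2 ratio of -0.26 to mcm6 at -0.06. Cyclins and cyclin-dependent kinase proteins had a median of -0.08, and their highest member was the kinase inhibitor cdkn1a at 2.32 and 22.4 CPM, a log2 ratio of 3.26 (2.84 to 3.73). Protein kinases as a whole, 94 genes, had a median of -0.05. Heat shock proteins and chaperones had a median of 0.02, with hspa8, the constitutive HSP70, carrying the most footprints at 3402 and 3568 CPM. Solute carriers, 193 genes, had a median of -0.06 but wide tails in both directions. By 2-fold or more, 13 of them (6.74%) were higher and 12 (6.22%) lower. Among all kept genes these shares were 3.60% and 3.31%, so both tails of the class were above the background. At the ends of the solute carriers stood the drug exporter slc47a1, 10.3 and 31.6 CPM, and the muscle form of the mitochondrial ATP carrier, slc25a4, 205 and 60.8 CPM.

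Respiratory chain and ATP synthase subunits were lower for 26 of 39 genes. None of them was at 2-fold, where 3.60% of all kept genes were higher and 3.31% lower. The ATP synthase gene atp5fa1 had 1551 and 1157 CPM. Glycolytic enzymes had a median of 0.06 and 4 genes at least 2-fold lower, or 12.9% against 3.31% of all kept genes. The lowest was pfkma, the muscle phosphofructokinase, at 58.6 and 15.3 CPM, and the highest pgam1a at 105 and 173 CPM. Of the lipid enzymes, fdps, which makes farnesyl diphosphate on the way to sterols, had 43.8 and 231 CPM, while elovl4b, which elongates very long fatty acids in the retina, had 20.97 and 2.28 CPM.

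Enzymes of nucleotide synthesis were among the sharper metabolic differences. All 6 genes of the route to inosinate, the first purine nucleotide, were higher, from adsl at 90.02 and 139 CPM to paics at 494 and 1657 CPM. The paics log2 ratio was 1.75 (1.71 to 1.78). In contrast all 3 adenylosuccinate synthases, which take inosinate on to AMP, were lower, with log2 ratios of -1.15 for adss2, -1.06 for adss1 and -0.49 for adssl. On the pyrimidine side umps had 43.8 and 109 CPM and ctps1a 90.3 and 184 CPM. The ribonucleotide reductase subunit rrm2b, which p53 induces in mammals, was the highest gene of both the purine and pyrimidine pathways at 25.6 and 92.3 CPM, and the muscle AMP deaminase ampd1 was the lowest of the purine pathway at 168 and 7.996 CPM. The enzyme groups, unlike the pathways, were formed after the values were seen.

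The classes not yet given lay between these. On the low side were ubiquitin hydrolases, which take ubiquitin off proteins, with 24 of 32 lower, tripartite motif proteins with 16 of 22, and protein phosphatases with 57 of 83, at medians of -0.15, -0.22 and -0.10. Small GTPases and their regulators had a median of -0.13, nuclear receptors -0.14, kinesins and dyneins -0.09, and forkhead box and sox factors -0.06. The retinoic acid receptor gene rargb was the lowest of the genes matched as nuclear receptors, which do not include the ROR genes, at 26.7 and 10.9 CPM. Ligands and receptors of Wnt, Fgf, Bmp and Hedgehog signalling had a median of -0.09, DNA repair proteins -0.08 and ubiquitin ligases -0.04. Just above the all-gene median of -0.04 were matrix metalloproteases at -0.01 and sterol and fatty acid enzymes at 0.02. The genes fdps and elovl4b of the last class were given above.

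On the high side ABC transporters had a median of 0.10, with the cholesterol exporter abca1b at 419 and 805 CPM. Laminins, integrins and fibronectins were at 0.15, aquaporins and fatty acid binding proteins at 0.20, claudins and gap junction proteins at 0.26, serine protease inhibitors at 0.34 and trypsin and chymotrypsin family proteases at 0.34. Fatty acid binding proteins went to both ends, fabp1b.1 being the highest of its class at 871 and 1817 CPM and fabp7a the lowest. The lens connexin gja8b was the lowest of the junction proteins at 15.7 and 6.20 CPM. Of the tRNA modifying enzymes 6 of 7 were higher, with a median of 0.29. None was at 2-fold, where 3.60% of all kept genes were higher and 3.31% lower.

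Pathway entries were present for 4960 kept genes, and 202 pathways had at least 15 of them. Of 80 pathways of interest with a matching name and enough genes, 54 had a median within 0.1 of 0, 18 were above that range and 8 below it. Entries with longer names than those sought were not counted, among them Citrate cycle (TCA cycle) at -0.15 and Drug metabolism - other enzymes at 0.13. The lowest medians of all were those of Glutamatergic synapse (-0.37), Synaptic vesicle cycle (-0.37) and GABAergic synapse (-0.37), followed by Circadian rhythm and Viral myocarditis. In Synaptic vesicle cycle 28 of 34 genes were lower, and the lowest was stxbp1b, which guides vesicle fusion, at 53.5 and 8.53 CPM. The entries share genes, such as slc1a2b and the GABA transporters, so they are not separate observations.

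The highest pathway medians belonged to Coronavirus disease, 0.95 over 22 genes, and Fluid shear stress and atherosclerosis, 0.80 over 18. Their names do not describe the members with high ratios: the first has rps27l, given above, as its highest gene and fga as the one with the most footprints, and the second is led by the cathepsin L-like gene si:dkey-26g8.4, present as 2 entries with identical values of 16.2 and 101 CPM. Complement and coagulation cascades, Ribosome and Pentose and glucuronate interconversions came next. In Ribosome, which includes mitochondrial ribosomal proteins, 98 of 126 genes were higher. Ribosome biogenesis in eukaryotes had 49 of 62 higher with a median of 0.28, and its highest gene was nop10, a core protein of pseudouridylation complexes, at 47.3 and 102 CPM. RNA polymerase had 16 of 22 higher with polr1d, shared by polymerases I and III, at 9.66 and 17.2 CPM.

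Pathways of stress and turnover differed mainly in their higher tails. In p53 signaling the median was 0.14, but 9 of 56 genes were at least 2-fold higher and 1 lower, the last being gadd45ga at 27.3 and 13.3 CPM. Apoptosis had 16 of 121 genes at least 2-fold higher and 2 lower. The higher shares were 16.1% in p53 signaling, 13.2% in Apoptosis and 9.01% in Lysosome, against 3.60% of all kept genes. The lower shares, 1.79%, 1.65% and 0%, were not above the 3.31% of all kept genes. The highest log2 ratio of Apoptosis, 2.64, was the same value as the highest of Lysosome, so the tails of these pathways are not separate observations. The initiator caspase casp8 was the highest gene of Necroptosis, 5.85 and 25.9 CPM. In Lysosome 10 of 111 genes were 2-fold or more higher and none 2-fold lower, and the summed level was 9673 CPM in sibling and 15740.0 CPM in mutant brain; ctsla alone, from 1973 to 6525 CPM, makes up most of that difference, and the pathway's median was 0.11. Signalling pathways of development were close to the middle, with medians of -0.07 for Wnt, 0.05 for Notch, -0.12 for TGF-beta and -0.17 for Hedgehog. Within Notch the ligand dlb had 50.9 and 128 CPM.

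Carbon pathways did not share one direction. The broad entry Carbon metabolism had a median of -0.01, with 57 of 115 genes higher and 58 lower. Citrate cycle (TCA cycle) and 2-Oxocarboxylic acid metabolism both had medians of -0.15, below that of all genes, while some others were above it. Pentose phosphate pathway had a median of 0.37, with fructose bisphosphatase fbp1b highest at 166 and 429.8 CPM and transketolase tkta lowest at 97.3 and 13.2 CPM. Glycolysis / Gluconeogenesis had a median of 0.27, with glucose-6-phosphatase g6pc1a.1 highest at 8.99 and 41.8 CPM. The class of glycolytic enzymes, given above, had a median of only 0.06, with 17 of 31 genes higher. In Arginine and proline metabolism the median was 0.26, yet its summed level was 12434 CPM in sibling and 7352 CPM in mutant brain; the pathway holds the creatine kinase genes ckma and ckmb. Oxidative phosphorylation had 88 of 127 genes lower and a median of -0.10.

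**Figure D5:**
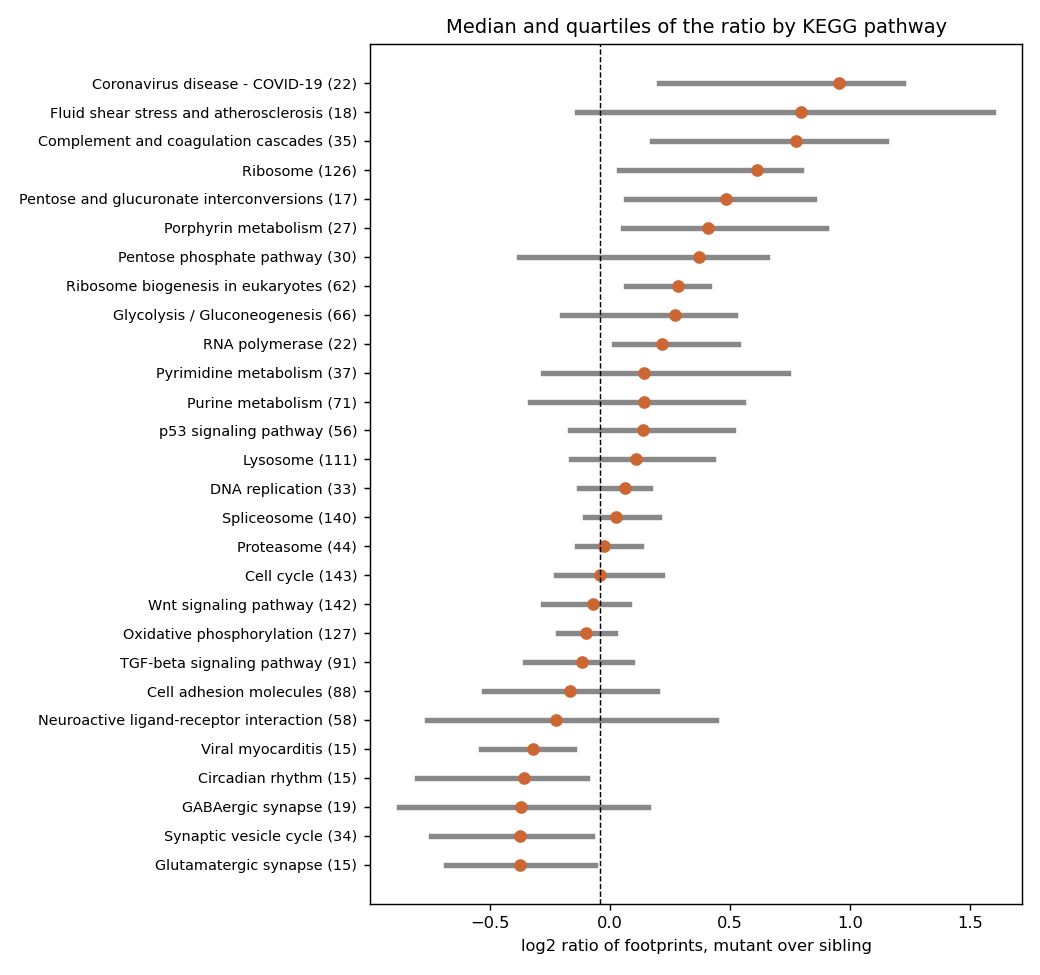
Median (orange point) and quartiles (grey bar) of the log2 ratio of mutant over sibling footprints for 28 KEGG pathways, with the number of kept genes in brackets and the median of all kept genes as a dashed line. Synaptic pathways lie lowest, near -0.37. The highest run from Ribosome at 0.61 through Complement and coagulation cascades and Fluid shear stress and atherosclerosis to Coronavirus disease at 0.95.

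The lowest ratios were those of si:dkey-57a22.15, 58.3 and 0.265 CPM, and si:ch211-255g12.6, 49.4 and 0.265 CPM, which have no described function. Among the others were the cartilage matrix gene matn1 at 67.98 and 0.530 CPM and gnb3a, a G protein beta subunit gene, at 202 and 2.97 CPM. The retinal adhesion gene rs1a had 46.4 and 1.38 CPM, and rhodopsin (rho) 65.5 and 2.01 CPM. Also in this list were crygm2d11, zgc:112285, znf488 and ENSDARG00000078052, an EMILIN-3 matrix protein, with log2 ratios of -7.24, -6.95, -5.52 and -5.14.

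At the other end were ENSDARG00000112047 and ENSDARG00000116179, with 0 counts in the sibling and identical values of 215 CPM in the mutant. Set against a floor of 3 counts in the sibling library they were at least 1484-fold higher, and the lower end of the exact interval, which allows the sibling a somewhat higher count, was 10.24 on the log2 scale. Their counts were not whole numbers and their description is that of ENSDARG00000116076, one of the largest losses, so the assignment of reads among these 3 genes is uncertain. ENSDARG00000096720, described as a carboxypeptidase N, had 2 sibling and 429 mutant counts, an interval of 6.02 to 10.93 on the log2 scale. Next came Igdcc3, an immunoglobulin family receptor, at 2.75 and 48.6 CPM, and mustn1b, a nuclear protein of the musculoskeletal system, at 1.74 and 23.4 CPM. The nuclear fusion gene brambleberry (bmb) had 2.42 and 24.04 CPM and zgc:162608 16.4 and 151 CPM; hspb9, hbbe3 and cdkn1a, given above, complete the list. Genes without a described function were not evenly split: of 519 described as uncharacterized, 310 were higher and 209 lower. At least 2-fold higher were 35, or 6.74%, against 3.60% of all kept genes. At least 2-fold lower were 15, or 2.89%, close to the 3.31% of all kept genes.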

How the data were processed

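Ribo-seq of brain was measured in 1 sibling and 1 mutant library. The submitters' processing notes name fastp, Bowtie2, STAR, Trimmomatic 0.38, HISAT2, SAMtools and GRCz11 for the series without saying which served which assay, and no source used here gives the counting program. The deposited table holds expected counts per gene, of which 25.7% of genes have a value that is not whole, and TPM values that the authors computed. Both counts were whole for 69.4% of the kept genes, and for 38.0% of those above 200 CPM. Counts were rounded to whole numbers, divided by the column totals of 20696345 (sibling) and 18884879 (mutant), and kept at a mean of at least 10 CPM. Log2 ratios used 0.5 added counts. Intervals are exact Clopper-Pearson intervals conditional on the summed count (Python 3.11.15, scipy 1.17.1), and were tested on simulated data. The simulated counts were whole, independent and drawn from the counting model that the intervals assume. Coverage for counts split among similar copies was therefore not checked. Intervals of medians are order-statistic intervals over genes, which are not replicates.

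Description classes were matched by words: 68 were written, 65 had at least 5 kept genes and 59 were described. The other 9 had wrong matches or too few genes; of these only neuropeptides and hormones are given, with their wrong matches. Pathways needed 15 kept genes. Named genes are nop2, the most abundant, highest and lowest gene of each set, and the 10 largest gains, losses, highest and lowest ratios; others are named as exceptions or group members seen in the data. One result is not reported here. Genes, classes and lists were chosen with earlier results of these data known. With 1 library per genotype no test was made. Alternatives were edgeR 4.0.16 (TMM) and DESeq2 1.42.0 scaling, other totals, the deposited TPM, other minimums, another pseudocount and whole-number counts only. The authors' comparison columns and the RNA bisulfite files were not used.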

Additional observations from a re-analysis of the deposited data

How the results depend on the processing

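No paired analysis was possible because each genotype has 1 library, and for the same reason no library could be left out. The median log2 ratio of all kept genes, -0.04, became 0.016 with TMM scaling and with DESeq2 size factors, -0.095 with totals that leave out the muscle, eye, skin and blood classes, and -0.096 with the authors' TPM. It was -0.058 at a minimum of 1 CPM, -0.056 with no minimum, -0.0046 at 50 CPM and -0.028 with whole-number counts only. The counts of at least 2-fold higher and lower genes were 856 and 1034 at 1 CPM, 2082 and 2498 with no minimum, 151 and 112 at 50 CPM, and 243 and 193 with whole-number counts; the number of genes tested changes in each of these. With TMM they were 418 and 297, and with the TPM 296 and 383, so which direction leads depends on the scaling. Of 148 class and pathway medians 29 changed sign with TMM, the furthest lying 0.05 from 0, and 20 with the TPM, the furthest being ABC transporters at 0.10. Relative to the median of all genes, crystallins went from -1.53 to 0.55 with whole-number counts, where only 7 genes remain and 4 of them are not lens crystallins. With no minimum complement and coagulation proteins were at 0.69, the Complement and coagulation cascades pathway went from 0.81 to 0.49 and cytochromes P450 from 0.65 to 0.40. At 50 CPM cadherins and protocadherins were at -0.26, axon guidance proteins at -0.089 and the Ribosome pathway at 0.73. The causes were not tested.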
